A study of Mus musculus with 8 samples.

Results

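Mylk and 9 further genes of the contractile apparatus, Acta2, Tagln, Myh11, Myh9, Myl9, Cnn1, Tpm1, Tpm2 and Des, were followed in RNA from isolated mouse islets. They are 10 of the 48709 genes in the deposited tables and were matched by name. Mylk and its companions were proposed with the genotype contrast already known, and were thus selected on the exon reads of this contrast, so their fold changes and p-values are given as a description of these libraries. β-Tead1-KO islets, named by the labels for a loss of Tead1 in β-cells, the insulin-secreting cells, were set against Flox/Flox islets, which carry the floxed alleles without that loss. Tead1 is a TEAD family transcription factor, one of those through which YAP and TAZ, the coactivators of Hippo signalling, reach DNA. Every mouse was 1 year old and on the C57BL/6 background, and there were 2 libraries in each genotype, each read on 2 lanes that were summed. The series text states that a library pools 3 samples, while the sample names carry fewer numbers, so the pool size is unclear. The sources used here give neither the Cre driver nor the sex of the mice. Nothing states how the libraries of a genotype relate to litters or days, so p-values measure the spread between these libraries.

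Myosin light chain kinase, the product of Mylk, is switched on by calcium and phosphorylates the regulatory light chain of myosin II. That step lets myosin filaments assemble and pull on actin, which shortens smooth muscle cells and tenses the cortex of other cells. The same gene also encodes a shorter kinase and telokin, a small protein without kinase activity. In smooth muscle and pericytes, the products of Acta2, Tagln, Myh11, Myl9, Cnn1 and Des form the specialised filament system, and serum response factor (SRF) binds CArG boxes in many of these genes. Myh9, Tpm1 and the nonmuscle light chains serve most cell types. In islets, smooth muscle cells and pericytes lie along the vessels, and endocrine cells are the bulk of the tissue.

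The promoters of Mylk, Acta2 and Tpm1 are shown because each holds the MCAT motif, CATTCC or its reverse complement GGAATG, which proteins of the TEAD family bind. Sequences are from RefSeq on build GRCm38.p6, run 5′ to 3′ in the direction of transcription, and cover the 250 bases before the transcription start. Capitals mark the motif. The Mylk window is chr16:34784700-34784949 on the plus strand, the Acta2 window is chr19:34255374-34255623 on the minus strand and the Tpm1 window is chr9:67049214-67049463 on the minus strand.
Mylk: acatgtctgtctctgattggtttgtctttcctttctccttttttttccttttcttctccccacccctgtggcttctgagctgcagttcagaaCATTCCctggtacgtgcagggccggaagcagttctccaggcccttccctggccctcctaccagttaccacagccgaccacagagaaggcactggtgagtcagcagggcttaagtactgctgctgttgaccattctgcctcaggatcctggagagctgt
Acta2: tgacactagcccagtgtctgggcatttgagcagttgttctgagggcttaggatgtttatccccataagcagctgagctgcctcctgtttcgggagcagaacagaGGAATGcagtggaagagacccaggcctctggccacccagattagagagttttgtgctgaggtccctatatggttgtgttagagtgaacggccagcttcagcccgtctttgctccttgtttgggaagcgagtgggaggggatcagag
Tpm1: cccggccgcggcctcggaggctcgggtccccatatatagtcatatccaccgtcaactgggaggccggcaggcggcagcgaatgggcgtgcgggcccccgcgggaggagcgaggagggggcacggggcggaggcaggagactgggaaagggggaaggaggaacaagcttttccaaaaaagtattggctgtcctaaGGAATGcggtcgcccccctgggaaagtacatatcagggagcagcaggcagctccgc
The RefSeq promoter table held 8 of the 10 genes, Tagln and Myh11 being the others. The MCAT motif was found in 3 of the 8, first base at -158 in Mylk, -146 in Acta2 and -56 in Tpm1, and in 12.6% of all 32851 promoters of the same length. The CArG box, searched by its strict consensus, which is its own reverse complement, was found in 1 of the 8 promoters, that of Myl9 at -161, and in 1.47% of all promoters. Stretches 1 base off that consensus were not counted. The windows shown hold such stretches, ccctatatgg and ccttgtttgg in Acta2 and ccatatatag in Tpm1, so the count does not show that a promoter lacks a CArG-like site. The motifs did not overlap in these windows. A match describes the letters alone, and the 3 genes with an MCAT motif had different values in these libraries, as given next.

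Mylk was far higher in the β-Tead1-KO-labelled libraries, and none of the 8 other genes tested passed. Exon reads of Mylk came to 144 and 186 CPM in the β-Tead1-KO-labelled libraries, against 7.76 and 8.32 CPM in Flox. CPM here means exon reads scaled with TMM factors to a common library total. The groups lay far apart, and the spread within each was small beside the gap between them. The underlying exon reads numbered 3213 and 4967 in the β-Tead1-KO-labelled libraries, against 167 and 118 in Flox. The means were 165.2 ± 30.0 CPM in β-Tead1-KO and 8.04 ± 0.401 CPM in Flox (SD, n = 2 each), a ratio of 20.55. The fitted log2 fold change was 4.36, standard error 0.21 (adjusted p = 0.00225, edgeR quasi-likelihood test with Benjamini-Hochberg adjustment over 15014 genes). By fold change Mylk stood at place 37 among the 264 genes called higher, and at place 21 among the 205 of them with a mean of at least 5 CPM. Since bulk RNA was measured, more cells that express a gene and more RNA per cell cannot be told apart.

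**Figure D1:**
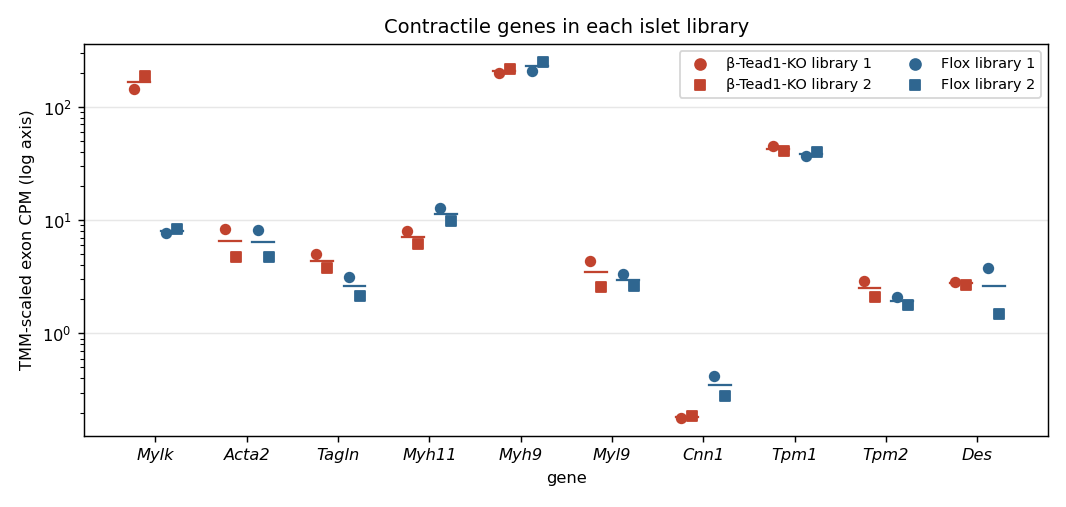
Exon level of each of the 10 contractile genes, as TMM-scaled CPM on a log axis, with 1 point per library and a short line at the mean of each genotype. Mylk is at 144 and 186 CPM in the β-Tead1-KO-labelled libraries and at 7.76 and 8.32 CPM in Flox. The gap between the genotypes is far smaller for the other genes. Tagln, Tpm1 and Tpm2 lie wholly above Flox with the β-Tead1-KO label, Myh11 and the scarce Cnn1 lie wholly below, and the others overlap.

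The filament genes typical of smooth muscle came first among the others. Acta2, the smooth muscle actin, was at 8.29 and 4.73 CPM in the β-Tead1-KO-labelled libraries, against 8.17 and 4.73 CPM in Flox. The groups overlapped almost fully, and the spread within each genotype exceeded the difference between them (log2 fold change 0.00, standard error 0.40, adjusted p = 0.999 by edgeR). Tagln, which encodes the actin-bundling protein transgelin, was at 5.02 and 3.75 CPM in the β-Tead1-KO-labelled libraries, against 3.16 and 2.12 CPM in Flox. Its libraries did not overlap, but the log2 fold change of 0.72 (standard error 0.34) missed the threshold (adjusted p = 0.375 by edgeR). Tagln shares 65 bases with Pcsk7 on the opposite strand, and whether counting used strand is not known.

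Myh11, the myosin heavy chain of smooth muscle, had the opposite sign. It was at 7.93 and 6.12 CPM in the β-Tead1-KO-labelled libraries, against 12.8 and 9.73 CPM in Flox. Both β-Tead1-KO-labelled libraries lay below both Flox libraries (log2 fold change -0.69, standard error 0.26, edgeR unadjusted p = 0.0378, adjusted p = 0.26). Cnn1, the actin-binding calponin of smooth muscle, had 4 and 5 exon reads in the β-Tead1-KO-labelled libraries, against 9 and 4 reads in Flox. These reads were too few for the filter, and Cnn1 was the only one of the 10 genes not tested. Des, which encodes the intermediate filament desmin, was at 2.87 and 2.67 CPM in the β-Tead1-KO-labelled libraries, against 3.76 and 1.48 CPM in Flox. The Flox libraries enclosed the others, and the log2 fold change was 0.05 (standard error 0.47, adjusted p = 0.973 by edgeR).

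Myl9, a regulatory light chain and thus a substrate of the kinase, was at 4.39 and 2.59 CPM in the β-Tead1-KO-labelled libraries, against 3.34 and 2.61 CPM in Flox. These values overlapped (log2 fold change 0.22, standard error 0.37, adjusted p = 0.83 by edgeR). Tropomyosins run along actin and govern the access of myosin. Tpm1 was at 44.6 and 40.7 CPM in the β-Tead1-KO-labelled libraries, against 37.1 and 40.0 CPM in Flox. Tpm2 was at 2.91 and 2.10 CPM in the β-Tead1-KO-labelled libraries, against 2.09 and 1.76 CPM in Flox. Neither pair of groups overlapped, yet the gaps between the nearest libraries were small, and the log2 fold changes were 0.15 for Tpm1 and 0.37 for Tpm2 (adjusted p = 0.712 and 0.676 by edgeR). Myh9, the nonmuscle myosin IIA heavy chain, was at 196 and 215 CPM in the β-Tead1-KO-labelled libraries, against 205 and 249 CPM in Flox, with overlapping groups (log2 fold change -0.14, standard error 0.18, adjusted p = 0.757 by edgeR).

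Of the 9 tested genes 1 passed the threshold, and it was higher. Over all 15014 tested genes 3.36% were called, 1.76% as higher and 1.60% as lower with the β-Tead1-KO label. Libraries that did not overlap were seen in 5 of the 9 genes, 4 higher and 1 lower with the β-Tead1-KO label, against 48.0% of all tested genes, 23.9% higher and 24.2% lower. The median log2 fold change was 0.10 over the 8 tested genes other than Mylk, against -0.01 over all tested genes. Under edgeR 1 of those 8 had an unadjusted p below 0.05, against 16.8% of all tested genes, and DESeq2 and limma-voom called 0 of them, against 7.44% and 2.62% of all genes. On junction reads and with the replicate number as a block 0 of the 8 were called too, against 4.20% and 7.71% of all genes. A missed threshold does not show equal levels: the standard errors of these 8 genes ran from 0.16 to 0.47 on the log2 scale.

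**Figure D2:**
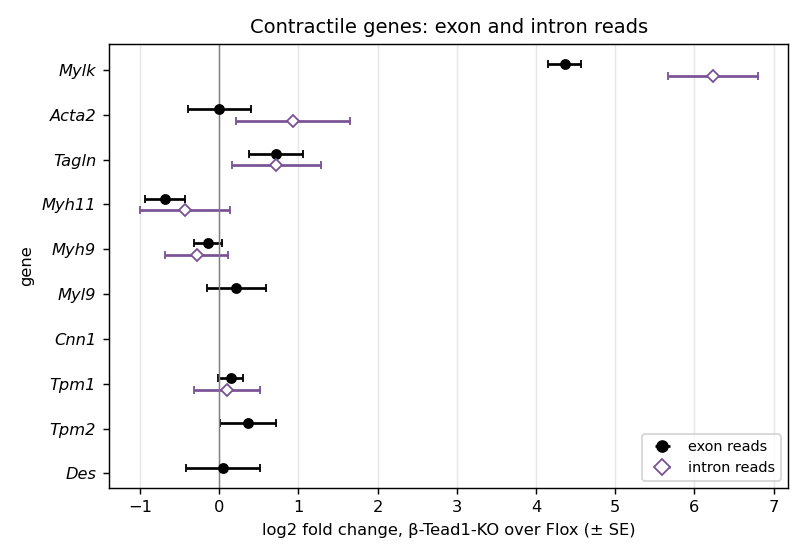
Log2 fold change of exon reads (filled) and intron reads (open) for each contractile gene, β-Tead1-KO over Flox, with bars of 1 standard error; a gene without a marker was not tested in that read class. Mylk is at 4.36 for exon reads and 6.23 for intron reads, and the exon values of the other genes run from -0.69 to 0.72.

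Levels between genes were compared per length with the authors' RPKM, averaged over the lanes. In the β-Tead1-KO-labelled libraries, Mylk averaged 10.4 RPKM, level with Myh9 at 10.2 RPKM, and their libraries overlapped. Below them came Tpm1 at 4.25, Acta2 at 2.40, Myl9 at 1.97 and Tagln at 1.80 RPKM, followed by Myh11 at 0.689, Tpm2 at 0.561, Des at 0.477 and Cnn1 at 0.0501 RPKM. Every library stood above both libraries of the next gene in this order for Myh9, Tpm1, Tagln and Des. Read library by library, Acta2 was also above Myl9, Myh11 above Tpm2 and Tpm2 above Des in each, while Mylk and Myh9, and Myl9 and Tagln, changed places.

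In Flox, the order by RPKM was led by Myh9 at 10.6 and Tpm1 at 3.62, then Acta2 at 2.27, Myl9 at 1.58, Myh11 at 1.05 and Tagln at 1.03. Mylk followed as the seventh at 0.483 RPKM, with Des at 0.444, Tpm2 at 0.408 and Cnn1 at 0.0922 RPKM below it. Here both libraries stood above those of the next gene for Myh9, Tpm1, Tagln and Tpm2. Within each library Acta2 was also above Myl9 and Myl9 above Myh11, while Myh11 and Tagln, Mylk and Des, and Des and Tpm2 changed places. Ratios within a library show the same change of order. The RPKM of Mylk over that of Acta2 was 3.05 and 6.90 in the β-Tead1-KO-labelled libraries, against 0.167 and 0.309 in Flox. The RPKM of Mylk over that of Myh9 was 0.934 and 1.10 in the β-Tead1-KO-labelled libraries, against 0.0482 and 0.0425 in Flox. Per length, Mylk was level with the nonmuscle myosin heavy chain in β-Tead1-KO and far below it in Flox.

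Introns gave a further view, since intron reads can come from transcripts not yet spliced. Mylk intron reads came to 204 and 345 CPM of intron reads in the β-Tead1-KO-labelled libraries, against 3.89 and 3.41 CPM in Flox. The read numbers behind them were 1516 and 6849 in the β-Tead1-KO-labelled libraries, against 23 and 55 in Flox. The groups were far apart, with a log2 fold change of 6.23 (standard error 0.57, adjusted p = 0.00292, edgeR over 14443 genes). It stood at place 11 of the 62 genes called higher on intron reads. Without β-Tead1-KO library 1 the log2 fold change was 6.59, and its adjusted p of 0.0799 missed the threshold, as did that of every other gene in that fit.

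Intron reads of 6 of the 10 genes passed the filter, and 1 of the 6 was called, as higher, against 0.748% of all genes tested on introns, 0.429% as higher and 0.318% as lower. Libraries that did not overlap were seen in 2 of the 6, Mylk and Acta2, both higher, against 36.9% of all these genes, 18.7% higher and 18.2% lower. Acta2 had 11 and 35 intron reads in the β-Tead1-KO-labelled libraries, against 7 and 9 in Flox, and these few reads gave a log2 fold change of 0.93 that missed the threshold (adjusted p = 0.798 by edgeR). The other genes tested on introns were Tagln, Myh11, Myh9 and Tpm1, and each had overlapping groups. Of the 5 genes other than Mylk, 0 had an unadjusted p below 0.05 with edgeR and 0 were called by DESeq2, which called 2.17% of all genes tested on introns.

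The share of intron reads among exon plus intron reads of Mylk was 32.1% and 58.0% in the β-Tead1-KO-labelled libraries, against 12.1% and 31.8% in Flox. Exact 95% binomial intervals, which cover counting error only, were 30.7% to 33.4% and 57.1% to 58.9% in the β-Tead1-KO-labelled libraries, against 7.83% to 17.6% and 24.9% to 39.3% in Flox. The groups did not overlap by their values, but β-Tead1-KO library 1 and Flox library 2 were level within those intervals. Over all genes the intron share was 29.4% and 38.0% in the β-Tead1-KO-labelled libraries, against 28.8% and 43.1% in Flox, so it was higher in library 2 of each genotype, and its part in the intron values was not tested. Junction reads made up 45.9% and 44.6% of the exon reads of Mylk in the β-Tead1-KO-labelled libraries, against 45.5% and 45.8% in Flox. The measured share of exon reads that cross a splice junction thus lay in a narrow range in all 4 libraries. Its exact 95% binomial intervals in Flox were wide, 37.8% to 53.4% and 36.6% to 55.2%, so a difference within them would not be seen.

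**Figure D3:**
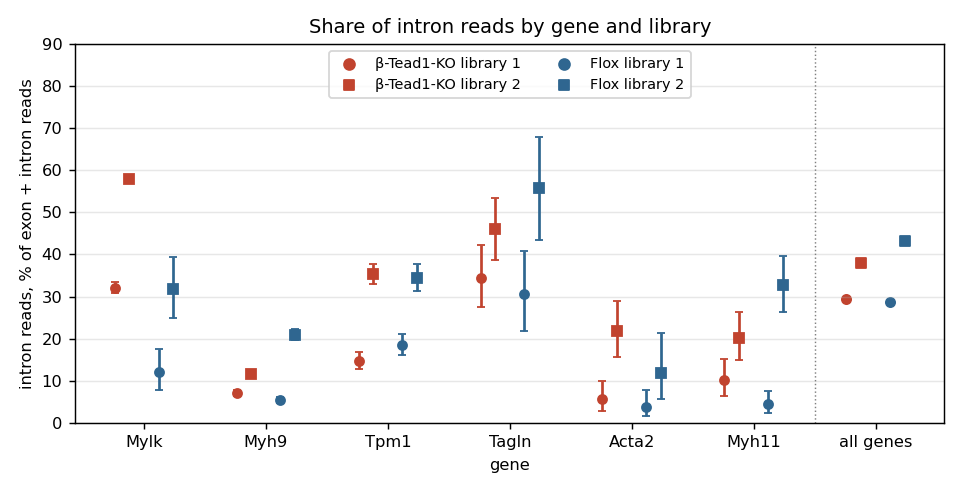
Intron reads as a percentage of exon plus intron reads, for the 6 contractile genes tested on intron reads and for all genes, with 1 point per library and exact 95% binomial intervals. Mylk is at 32.1% and 58.0% in the β-Tead1-KO-labelled libraries and at 12.1% and 31.8% in Flox, and library 2 is higher than library 1 of the same genotype for every gene drawn.

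Mylk lies on chromosome 16 from 34745210 to 35002420 on the plus strand of mm10. Its exon length in the deposited tables, 10159 bases, equals that of the union of 2 transcripts of the GENCODE vM21 annotation: Mylk-201, protein-coding, with 32 exons from 34784921 to 35002420, and Mylk-202, a retained-intron transcript that starts at 34745210. The RefSeq start used for the promoter lies 39740 bases after the start of the gene in the tables. GENCODE vM21 also lists a short protein-coding transcript, Mylk-203, from 34994807 to 35001363, inside the 3′ part of the gene. Reads were deposited per gene, so the long kinase, the short kinase and telokin could not be told apart. GENCODE vM21 lists 8 Mylk transcripts in all. Whether reads of those outside the union of 2 were counted as intron reads is not known. The antisense gene 1700119H24Rik inside Mylk had 0 and 1 exon reads in the β-Tead1-KO-labelled libraries, against 0 and 0 in Flox.

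Genes beside Mylk were examined after the values were seen. Within 500 kb on either side 6 genes were tested and 0 passed the threshold, against 3.36% of all tested genes. Ccdc14, which lies 20.0 kb upstream, had 0.55 as its log2 fold change (adjusted p = 0.384 by edgeR), and Hacd2, 20.0 kb downstream, had -0.48 (adjusted p = 0.362 by edgeR). The values of Kalrn, Adcy5, Sec22a and Pdia5 lay between -0.43 and 0.20. None of these neighbours had a change near the size of that of Mylk.

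The libraries of a genotype also differed by number for the filament genes. Of the 9 genes other than Mylk, 6 were lower in library 2 than in library 1 of both genotypes, namely Acta2, Tagln, Myh11, Myl9, Tpm2 and Des, against 32.4% of the 15014 tested genes. Acta2 was 1.75-fold higher in library 1 than in library 2 in β-Tead1-KO and 1.73-fold higher in Flox. Mylk did not follow that order and was a little higher in library 2 of each genotype, as was Myh9. The summed level of 9 acinar markers was 864 and 7206 CPM in the β-Tead1-KO-labelled libraries, against 1775 and 6487 CPM in Flox, and so also went with library number. Its part in the order of the filament genes was not tested.

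**Figure D4:**
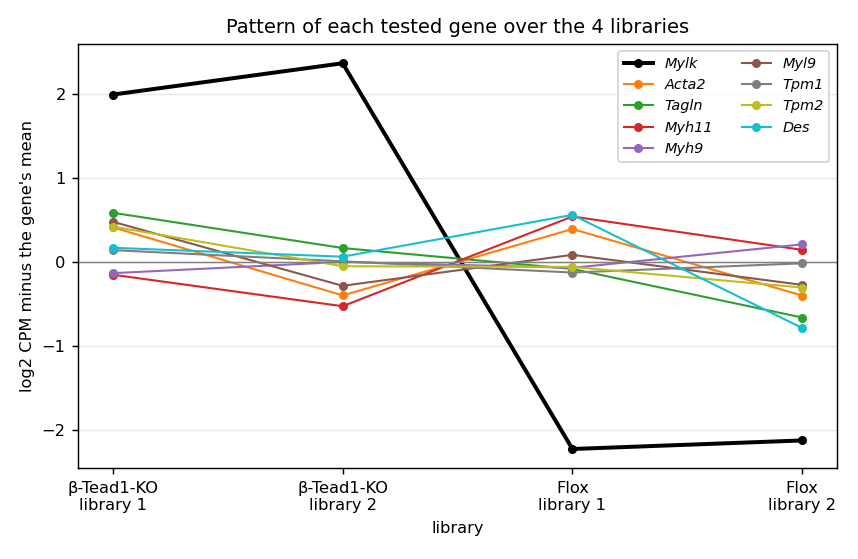
Log2 CPM of each tested contractile gene in each library, minus the mean of that gene over the 4 libraries; lines join the points of a gene for the eye. Mylk splits by genotype. Acta2, Tagln, Myh11, Myl9, Tpm2 and Des are lower in library 2 than in library 1 of each genotype. Tagln, Tpm1 and Tpm2 also lie wholly above Flox with the β-Tead1-KO label, and Myh11 lies wholly below.

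The tested genes whose pattern over the 4 libraries was most like that of Mylk were sought among 13617 genes with a mean of at least 1 CPM, by the Euclidean distance of centred log2(CPM + 0.5) values. The nearest 5 were Gm20383, a long noncoding RNA, at 0.15, Bmp2, a secreted bone morphogenetic protein, at 0.15, Crabp1, a retinoic acid binding protein, at 0.22, Kcnc4, a voltage-gated potassium channel, at 0.24, and Nlgn1, a synaptic adhesion protein, at 0.30. Nlgn1 was at 62.0 and 88.3 CPM in the β-Tead1-KO-labelled libraries, against 2.55 and 2.82 CPM in Flox. Kcnc4 was at 58.6 and 63.3 CPM in the β-Tead1-KO-labelled libraries, against 2.42 and 2.40 CPM in Flox. Gm20383 had 0 reads in Flox, and the pseudocount of 0.5 compresses the differences of such low genes, so distances are shorter for them than the fold changes would give.

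The 10 genes followed here were left out of the search. None of the 5 belongs to the 4 further lists of contractile genes. No tested gene of those lists had a log2 fold change above 1.68, so that outcome was fixed by their fold changes. The nearest to Acta2 were Ube2l6, Nostrin, Cd74, Hspe1 and Cacybp, at distances of 0.0539 to 0.0911. Cd74, the invariant chain of MHC class II, was at 148 and 93.8 CPM in the β-Tead1-KO-labelled libraries, against 148 and 94.1 CPM in Flox.

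Further genes of the same apparatus were taken from 4 lists. Of 85 genes matched, 78 were tested and 2 passed, 1 higher and 1 lower, against 3.36% of all tested genes. Their median log2 fold change was -0.00, against -0.01 over all tested genes, and 39 of the 78 had a positive value. An unadjusted p below 0.05 was seen for 16 of the 78, against 16.8% of all 15014 tested genes.

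Other smooth muscle and SRF-driven genes numbered 29 tested, of which 1 was called higher and 0 lower, against 1.76% and 1.60% of all tested genes. Their median log2 fold change was 0.08. Of the 29, 13 lay wholly above Flox and 6 wholly below, against 23.9% and 24.2%. By edgeR 7 had an unadjusted p below 0.05, 3 were called by DESeq2 and 1 by limma-voom, against 16.8%, 7.44% and 2.62%. The gene called higher by edgeR was Synpo2, which encodes an actin-bundling protein of the Z-disc and of dense bodies. It was at 11.2 and 10.1 CPM in the β-Tead1-KO-labelled libraries, against 3.99 and 3.17 CPM in Flox (log2 fold change 1.57, standard error 0.24, adjusted p = 0.0331 by edgeR). Its groups lay apart by more than the spread within each. The call was lost without β-Tead1-KO library 1 or 2 (adjusted p = 0.218 and 0.196), on junction reads (adjusted p = 0.153), on exon plus intron reads (adjusted p = 0.158) and in lane 1 alone (adjusted p = 0.0728).

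The nonmuscle actomyosin list had 15 genes tested, of which 0 were called higher and 1 lower, against 1.76% and 1.60% of all tested genes. The median log2 fold change was 0.14. By edgeR 4 had an unadjusted p below 0.05, 2 were called by DESeq2 and 1 by limma-voom, against 16.8%, 7.44% and 2.62%. Myh14, the nonmuscle myosin IIC heavy chain, fell to 10.6 and 8.37 CPM in the β-Tead1-KO-labelled libraries, against 28.4 and 32.9 CPM in Flox (log2 fold change -1.69, standard error 0.21, adjusted p = 0.0175 by edgeR). Its libraries did not overlap. The call was lost without β-Tead1-KO library 1 or 2 (adjusted p = 0.0905 and 0.152) and on exon plus intron reads (adjusted p = 0.151). Myh10, the nonmuscle myosin IIB heavy chain, was at 52.2 and 55.4 CPM in the β-Tead1-KO-labelled libraries, against 45.9 and 51.9 CPM in Flox, which missed the threshold (adjusted p = 0.727 by edgeR). Among the 3 nonmuscle myosin heavy chains, Myh9, Myh10 and Myh14, 1 passed the test. Myh10 was named after its values were seen.

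Kinases and phosphatases that act on the light chain, with their regulators, had 24 genes tested and 0 called by edgeR, against 3.36% of all tested genes. By edgeR 3 had an unadjusted p below 0.05, 1 was called by DESeq2 and 0 by limma-voom, against 16.8%, 7.44% and 2.62%. Of the 24, 5 lay wholly above Flox and 4 wholly below, against 23.9% and 24.2%. The median log2 fold change was -0.03. Ppp1cb, the catalytic subunit of myosin phosphatase, was at 564 and 564 CPM in the β-Tead1-KO-labelled libraries, against 485 and 376 CPM in Flox. Arhgef12, a guanine nucleotide exchange factor, was at 425 and 433 CPM in the β-Tead1-KO-labelled libraries, against 407 and 464 CPM in Flox. Neither passed the test (adjusted p = 0.439 for Ppp1cb and 0.969 for Arhgef12 by edgeR). The other genes named as myosin light chain kinases, Mylk2, Mylk3 and Mylk4, were near 0. Mylk2 had 0 and 0 exon reads in the β-Tead1-KO-labelled libraries, against 2 and 1 in Flox. Mylk4 had 1 and 2 with the β-Tead1-KO label, against 0 and 1 in Flox, and Mylk3 had 0 in every library. Cit and Dapk2, further kinases of this list, lay wholly above Flox and missed the threshold. They are named after their values were seen. Cit was at 6.32 and 12.8 CPM in the β-Tead1-KO-labelled libraries, against 3.53 and 3.24 CPM in Flox (adjusted p = 0.12 by edgeR). DESeq2 called it. Dapk2 had 19 and 41 exon reads with the β-Tead1-KO label, against 6 and 7 in Flox (adjusted p = 0.267 by edgeR).

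SRF and its cofactors had 10 genes tested and 0 called by edgeR, against 3.36% of all tested genes. By edgeR 2 had an unadjusted p below 0.05, and 0 were called by DESeq2 and 0 by limma-voom, against 16.8%, 7.44% and 2.62%. The median log2 fold change was -0.12. Named by their mean CPM were Elk4 and Elk3, ternary complex factors that bind with SRF, and Mkl2, an SRF coactivator that responds to actin. Mkl2 was at 45.5 and 58.1 CPM in the β-Tead1-KO-labelled libraries, against 53.8 and 64.7 CPM in Flox, with overlapping groups. Log2 fold changes were -0.20 for Elk4, 0.02 for Elk3 and -0.19 for Mkl2.

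**Figure D5:**
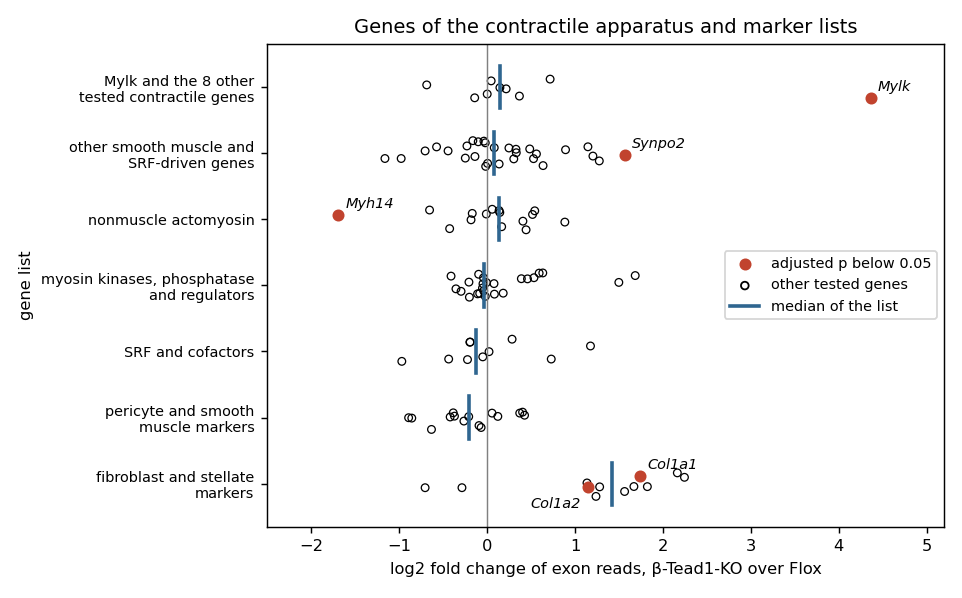
Log2 fold change of exon reads, β-Tead1-KO over Flox, for each tested gene of the contractile lists and of 2 marker lists, with filled points for genes past the threshold and a bar at the median of each list. Mylk at 4.36 lies beyond every other gene drawn, and the medians of the 4 further contractile lists run from -0.12 to 0.14.

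Exon reads totalled 22352518 and 26387280 in the β-Tead1-KO-labelled libraries, against 21938244 and 14069569 in Flox, and the estimated biological coefficient of variation was 24.3%. Tead1 itself was at 137 and 163 CPM in the β-Tead1-KO-labelled libraries, against 101 and 124 CPM in Flox (log2 fold change 0.41, standard error 0.19, adjusted p = 0.347 by edgeR). A sum over the whole gene does not resolve a deleted exon, so it does not check the genotype labels, and every direction given here rests on those labels. For the marker counts that follow, the shares of all tested genes were 23.9% wholly above Flox and 24.2% wholly below. They were 16.8% at an unadjusted p below 0.05 by edgeR, 3.36% called by edgeR, 7.44% by DESeq2 and 2.62% by limma-voom. The 8 β-cell markers had a median log2 fold change of -0.71, with 6 of 8 lower in both the β-Tead1-KO-labelled libraries than in both Flox libraries. Of the 8, 1 was called by edgeR, Slc2a2 (156 and 218 CPM with the β-Tead1-KO label, against 840 and 1010.0 CPM in Flox), 5 had an unadjusted p below 0.05, 5 were called by DESeq2 and 1 by limma-voom. Ins1 was at 29610 and 29110 CPM in the β-Tead1-KO-labelled libraries, against 57380 and 63360 CPM in Flox (log2 fold change -1.04, standard error 1.16, adjusted p = 0.722 by edgeR). Ins2 had overlapping groups. Iapp went the other way, the only 1 of the 8 wholly above Flox. It was at 39420 and 31650 CPM with the β-Tead1-KO label, against 28160 and 17740 CPM in Flox (log2 fold change 0.63, adjusted p = 0.8 by edgeR). The part of these β-cell values in the Mylk values was not tested. The 15 markers of smooth muscle cells and pericytes summed to 265 and 270 CPM in the β-Tead1-KO-labelled libraries, against 268 and 257 CPM in Flox, with 0 called by edgeR, 1 at an unadjusted p below 0.05 and 0 called by DESeq2 or limma-voom. Their median log2 fold change was -0.21, with 3 of 15 wholly above Flox and 6 wholly below, against 23.9% and 24.2% of all tested genes. Much of that sum was Rgs5, a pericyte marker, at 174.5 and 174 CPM in the β-Tead1-KO-labelled libraries, against 174 and 146 CPM in Flox. The 12 fibroblast and stellate markers summed to 140.5 and 111 CPM in the β-Tead1-KO-labelled libraries, against 64.0 and 40.3 CPM in Flox, with 2 of 12 called higher, Col1a1 and Col1a2, and a median log2 fold change of 1.42. In that list 10 of 12 lay wholly above Flox, against 23.9% of all tested genes. Of the 12, 8 had an unadjusted p below 0.05, 6 were called by DESeq2 and 1 by limma-voom, against 16.8%, 7.44% and 2.62%. The sum of these markers differed 2.41-fold and Mylk 20.55-fold, and the part of these cells in the Mylk values was not tested. Erythroid markers also moved with genotype: 5 of 5 tested lay wholly above Flox, against 23.9% of all tested genes. Their sum was 317 and 235 CPM in the β-Tead1-KO-labelled libraries, against 121 and 52.5 CPM in Flox. Of the 2 mesothelial markers tested 1 was called lower by edgeR, Msln, with 2 at an unadjusted p below 0.05, 1 called by DESeq2 and 0 by limma-voom. Their list of 8 genes summed to 3.27 and 1.58 CPM in the β-Tead1-KO-labelled libraries, against 13.5 and 35.6 CPM in Flox, with Muc16 at 0 reads. Much of the Flox sum was Msln alone, at 7.94 and 28.8 CPM. Of 16 striated muscle markers 6 had 0 reads in every library, 2 were tested and 0 were called by edgeR, DESeq2 or limma-voom, with 0 at an unadjusted p below 0.05, and their sum was 2.69 and 2.25 CPM in the β-Tead1-KO-labelled libraries, against 3.30 and 2.61 CPM in Flox.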

How the data were processed

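Total RNA of isolated islets was sequenced. The authors deposited 1 table per lane with whole-number read counts per gene (exon, junction and intron reads), TPM and RPKM, per the file headers. The submitters' processing notes name mm10 as the build. Aligner, counter, annotation and strand use: not given in the sources used here. TPM was read only to learn what the tables hold, and RPKM served for levels between genes. The scaling total of RPKM includes reads outside exons. Exon reads came to 68.4% of it in β-Tead1-KO library 1 and 54.8% in Flox library 2. Comparisons of RPKM between libraries carry that difference, and those within a library do not. 

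Lanes of a library differed by a chi-square per degree of freedom of 1.07 to 1.20, and libraries of a genotype by 48.4 in β-Tead1-KO and 66.8 in Flox, so lanes were summed and the library was the replicate. Genes were filtered with filterByExpr (minimum count 10, total 15), TMM-scaled and fitted by quasi-likelihood in edgeR 4.0.16 (R 4.3.3). P-values were 2-sided, adjusted by Benjamini-Hochberg over every gene tested, with a threshold of 0.05. Standard errors of edgeR fits were worked back from the test, as the absolute log2 fold change over the square root of the F statistic. Intron reads were fitted on their own. The script was tested on simulated counts. Genes, lists and tests were chosen with earlier results of these data known. Named were the 10 genes, list genes past the threshold (otherwise the 3 most abundant), the most abundant markers, Tead1, and the 5 genes nearest in pattern to Mylk and to Acta2. Other fits used DESeq2 1.42.0, limma-voom (limma 3.58.1), other scaling, filters and read classes, single lanes, a replicate block, and 1 library left out. The legacy mode of edgeR was added after the data were seen. No protein sequences were used here. Some genes of the lists are counted but not reported by name here.

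Further marker lists gave these counts called in edgeR, against 3.36% of all tested genes. The counts in brackets stand against 16.8% at an unadjusted p below 0.05, 7.44% by DESeq2 and 2.62% by limma-voom. Endothelial markers had 0 of 11 (2 at an unadjusted p below 0.05, 1 by DESeq2, 0 by limma-voom), macrophage markers 0 of 8 (1, 1 and 0 in the same order), acinar markers 0 of 9 (0, 0 and 0), ductal markers 0 of 5 (1, 0 and 0) and Schwann cell and neural markers 0 of 4 (0, 0 and 0). Erythroid markers had 1 higher of 5, Hbb-bt (5, 3 and 1).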

Additional observations from a re-analysis of the deposited data

How the results depend on the processing

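The exon log2 fold change of Mylk stayed between 4.18 and 5.03 and past the threshold in all 16 alternatives, with adjusted p between 1.89e-69 and 0.0289, and 0 of the other contractile genes passed in any of them. The intron log2 fold change of Mylk ran from 5.80 to 6.59 with 1 library left out, and the count of contractile genes called on introns from 0 to 1. The count of 2 further contractile genes called was 6 with DESeq2, 1 on junction reads, 1 in lane 1 alone, 0 on exon plus intron reads and 0 to 14 with 1 library left out, namely 14 without Flox library 1, 4 without Flox library 2 and 0 without either library labelled β-Tead1-KO. With the replicate number as a block, it was 4, Mylk was at 4.35, and 1157 genes were called in place of 504. The labels do not pair the libraries: a shared number is all that links them, and library 1 minus library 2 correlated at 0.39 between genotypes across 15014 genes. Calls over all genes were 1117 with DESeq2, 61 on exon plus intron reads, 2359 and 964 without Flox library 1 or 2, and 89 and 67 without β-Tead1-KO library 1 or 2. Signs turned only for genes that missed the threshold, and the cause was not tested. Acta2 was at -0.0724 with limma-voom, -0.0086 in lane 1 alone, -0.0128 in lane 2 alone, and -0.43 to 0.47 with 1 library left out. Des was at -0.0805 in lane 1 alone. With 1 library left out Des ran from -0.44 to 0.91, Myh9 from -0.26 to 0.0048, Myl9 from -0.18 to 0.57, the introns of Myh11 from -0.79 to 0.0732 and those of Tpm1 from -0.25 to 0.54. A lone library left in a group is assumed to vary like the other group.

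With 2 libraries per genotype, only large differences pass: the standard errors of Acta2, Myl9 and Des were 0.37 to 0.47 on the log2 scale. Cnn1, with 4 to 9 exon reads, was removed by the filter; without a filter it was at -0.91, standard error 0.74 (adjusted p = 0.66 by edgeR). The replicates of a genotype differ in depth, intron share and acinar RNA. Gene-level reads separate no isoform of Mylk and no deleted exon of Tead1.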

Other observations

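Several genes of the wider contractile lists had separate groups and missed the threshold, and they are named after their values were seen. Cald1, which encodes the actin-binding caldesmon, was at 109 and 93.9 CPM in the β-Tead1-KO-labelled libraries, against 57.6 and 30.3 CPM in Flox (log2 fold change 1.20, adjusted p = 0.122 by edgeR). Hspb1, a small heat shock protein that associates with actin, was at 26.6 and 16.7 CPM in the β-Tead1-KO-labelled libraries, against 11.2 and 6.63 CPM in Flox (log2 fold change 1.28, adjusted p = 0.131 by edgeR). DESeq2 called both.

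Casq2, the calcium-binding calsequestrin of the sarcoplasmic reticulum, was at 2.51 and 2.59 CPM in the β-Tead1-KO-labelled libraries, against 5.57 and 4.44 CPM in Flox (log2 fold change -0.98, adjusted p = 0.156 by edgeR). Values of either sign thus stood side by side among genes that are grouped under one contractile heading.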
